A study of Mus musculus with 8 samples.

Results

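Zfp900 to Zfp999 are mouse zinc finger genes that share a numbered symbol. They were taken here as every protein-coding gene whose symbol is Zfp followed by a 3-digit number that starts with 9, after the deposited transcript counts had been summed per gene. There were 63 such genes among 47434 genes, on 12 chromosomes. RNA was sequenced after poly-A selection from the mouse hepatoma line Hepa 1-6. One group, G9a_KO, held 4 libraries from cells in which Ehmt2, the gene of the histone methyltransferase G9a, had been knocked out. The other, WT, held 4 libraries of Hepa 1-6 cells without it. The series asked what loss of G9a does to RNA levels in this line. The labels do not say how the knockout was made, whether it was 1 clone, or whether the 4 libraries are independent cultures. The p-values are therefore against the scatter among these libraries, some or all of which may be technical.

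Most genes of this kind encode KRAB zinc finger proteins. Their C2H2 fingers bind DNA, often inside retroelements, and their KRAB domain recruits Trim28 (KAP1), which brings in Setdb1 and other partners that place trimethyl marks on lysine 9 of histone H3. Many of the genes lie in clusters that have expanded in rodents, some of them with near-identical copies. Deletion of such clusters on chromosomes 2 and 4 is known to release retroelements in mouse embryonic stem cells. G9a acts on the same lysine and places mono- and dimethyl marks there.

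The annotated coding sequences bore out the label for most of the 63 genes. A KRAB pattern was found in 54 of them and at least 3 C2H2 fingers in 59, with 51 holding both. The number of fingers lay between 0 and 21, with a median of 11. By starts at most 2 Mb apart and at least 3 tested genes, 4 clusters were described: 10 genes on chromosome 2, 16 on chromosome 4, 10 on chromosome 17 and 3 on chromosome 8. The other 24 genes lay outside them.

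The family was lowered or not called, with no gene called higher. Of the 63 genes, 47 had enough counts to be tested. In G9a_KO cells 17 of these fell (36.2%, edgeR quasi-likelihood F test, adjusted p under 0.05 over all genes), against 23.6% of all 15840 genes tested. No gene of the family was called higher, where 23.6% of all genes tested were. None passed an unadjusted p of 0.05 upwards either, and DESeq2 and limma-voom also called 0 higher. With library sizes alone as the scaling 1 was called higher (Zfp948), and without WT replicate 3 there were 2 (Zfp945 and Zfp950). The median log2 fold change (G9a_KO over WT) of the 47 genes was -0.25, and that of all genes tested was 0.0037. Of the 47 genes, 15 (31.9%) had every G9a_KO library below every WT library, against 21.4% of all genes tested, and all 15 were among the 17 that fell.

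**Figure D1:**
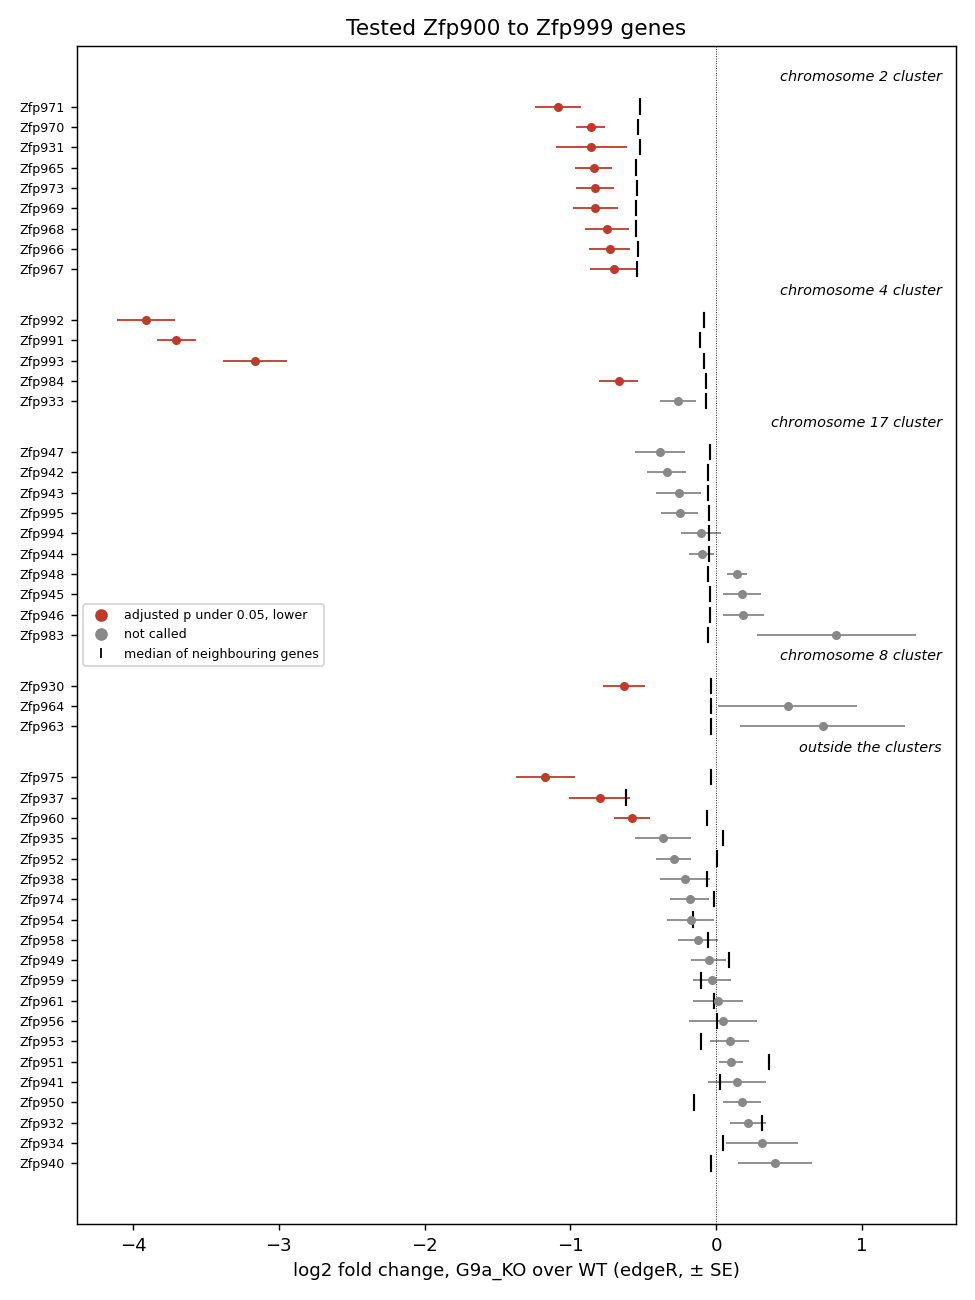
Log2 fold change of the 47 tested genes (G9a_KO over WT, horizontal axis, points with SE), grouped by cluster. Red points are the 17 genes called lower, grey points the 30 not called, and black ticks mark the median of genes without fingers within 5 Mb. Zfp991, Zfp992 and Zfp993 lie between -3.91 and -3.16, and all 9 tested genes of the chromosome 2 cluster lie between -1.08 and -0.70.

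The 328 other genes named Zfp and a number fell more often than they rose. Of these, 279 were tested, 93 fell (33.3%) and 23 rose (8.2%), with a median of -0.12. The difference between the families was not tested. Chromosome 2 held 10 of the 17 genes that fell, and all 10 of its tested genes fell. Off chromosome 2, 7 of 37 tested genes of the family fell (18.9%), which is not above the 23.6% of all genes, and the median was -0.10.

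Facts of the libraries as a whole bear on these values. Totals lay between 58256100 and 75025236 counts, so a count of 0 in 1 library allows up to 3 counts, or 0.04 to 0.0515 CPM. CPM are counts per 1e6 counts of the library, and all levels below use totals normalized by TMM. Ehmt2 (chromosome 17, 34898469 to 34914052, GRCm38) had 117, 117, 120 and 119 CPM in the G9a_KO libraries, against 345, 307, 298 and 307 CPM in the WT libraries (log2 fold change -1.41 ± 0.05 SE, edgeR, adjusted p = 3.82e-10). The groups did not overlap, and the table cannot show where the gene was cut. Of 7 hepatocyte genes found of 8 listed, Alb, Ttr and Fgb were at 0 in every library, so the tissue label liver was not visible in these 3. Apoa1 and Apob were too low to test. Apoa2 averaged 0.885 CPM in G9a_KO and 0.996 CPM in WT, and Afp was detected in every library. The summed hepatocyte level was 118.6 to 145.3 CPM in G9a_KO and 6.22 to 7.64 CPM in WT libraries, nearly all from Afp (133 ± 11.9 CPM in G9a_KO and 5.77 ± 0.567 CPM in WT). The 5 fibroblast genes summed to 7.40 to 8.80 CPM in G9a_KO against 1.80 to 3.04 CPM in WT, with Lum at 0. The largest part was Col1a2 (5.35 ± 0.59 CPM in G9a_KO and 0.44 ± 0.26 CPM in WT), with Col1a1 at 2.53 and 1.74 CPM. Pdgfrb was lower in G9a_KO and not called (0.0546 and 0.186 CPM), and Dcn was too low to test. The 4 endothelial genes summed to 4.66 to 5.82 CPM in G9a_KO against 2.33 to 3.51 CPM in WT. Most of this was Cdh5 (4.32 ± 0.46 CPM in G9a_KO and 2.28 ± 0.31 CPM in WT), while Pecam1 and Kdr were not called and Tek was too low to test. Macrophage genes (5, with Adgre1 at 0) summed to 8.11 to 9.38 CPM in G9a_KO against 5.45 to 9.60 CPM in WT. Among them Ptprc was called higher (1.08 ± 0.077 CPM in G9a_KO and 0.437 ± 0.0459 CPM in WT). Csf1r was lower in G9a_KO and not called (0.715 and 1.38 CPM), Cd68 was not called, and Lyz2 was too low to test. T cell genes (4, with Cd3e and Cd4 at 0) summed to 1.10 to 2.23 CPM in G9a_KO against 1.29 to 2.09 CPM in WT. The part of these shifts in the results below was not tested. In bulk RNA, fewer cells that express a gene and less RNA per cell cannot be told apart.

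The deepest falls were on chromosome 4. Zfp991, Zfp992 and Zfp993 lie between 146449023 and 147180579, in a cluster of 16 genes from 145510759 to 147848366. Their coding sequences were nearly the same. Zfp992 shared 1711 of 1719 aligned bases with Zfp991 (99.5%), and the shorter Zfp993 shared 938 of 940 (99.8%). Zfp984, in the same cluster, shared 90.7% with Zfp991, and Zfp985, which had 0 counts in all 8 libraries, shared 89.6%. The first 150 coding bases of these genes, taken from the GENCODE release M21 transcripts, are shown because they make visible how closely the 3 genes that fell together resemble each other. Capitals mark bases that differ from Zfp991.
Zfp991: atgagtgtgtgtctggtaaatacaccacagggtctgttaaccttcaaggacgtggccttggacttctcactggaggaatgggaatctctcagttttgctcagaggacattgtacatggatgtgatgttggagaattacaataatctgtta
Zfp992: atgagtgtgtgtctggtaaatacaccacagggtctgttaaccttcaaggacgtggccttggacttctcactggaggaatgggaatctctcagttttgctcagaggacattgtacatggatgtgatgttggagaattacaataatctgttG
Zfp993: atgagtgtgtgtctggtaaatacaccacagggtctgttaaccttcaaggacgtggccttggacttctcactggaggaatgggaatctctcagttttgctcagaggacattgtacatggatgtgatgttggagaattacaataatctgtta
Zfp984: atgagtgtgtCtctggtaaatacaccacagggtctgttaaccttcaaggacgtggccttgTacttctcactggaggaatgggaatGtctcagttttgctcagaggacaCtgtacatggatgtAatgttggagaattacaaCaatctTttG
Zfp985: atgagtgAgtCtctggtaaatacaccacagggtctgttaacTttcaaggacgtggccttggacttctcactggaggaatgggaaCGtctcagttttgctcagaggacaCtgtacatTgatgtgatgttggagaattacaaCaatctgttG
Over this stretch Zfp993 had 0 differences from Zfp991, Zfp992 had 1, Zfp984 had 8 and Zfp985 had 9.

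Zfp991 (11 fingers and a KRAB pattern) had 1.08, 1.34, 1.23 and 1.12 CPM in the G9a_KO libraries, against 12.4, 16.9, 17.1 and 15.7 CPM in the WT libraries. Its G9a_KO mean was 7.68% of its WT mean, with a log2 fold change of -3.70 ± 0.13 (edgeR, SE, 4 libraries each, adjusted p = 3.82e-10). The highest G9a_KO library was far below the lowest WT library. Zfp992, with as many fingers, had 0.533, 0.751, 0.521 and 0.491 CPM in G9a_KO, against 7.16, 9.85, 10.6 and 6.98 CPM in WT. Its log2 fold change was -3.91 ± 0.20 (adjusted p = 6.58e-09), again with no overlap. Zfp993, whose annotated coding sequence has only 2 fingers, had 0.325, 0.592, 0.454 and 0.336 CPM in G9a_KO, against 3.62, 4.28, 3.75 and 3.63 CPM in WT. It fell by 3.16 ± 0.22 on the log2 scale (adjusted p = 1.05e-07), and its groups did not overlap.

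Part of the reads of these 3 genes could have been assigned to another of them. Of all 100-base runs in the transcripts of Zfp991, 70.3% also occur in another gene, as do 28.6% of those of Zfp992 and 71.9% of those of Zfp993. Their split is therefore uncertain. Their sum was 2.19 ± 0.351 CPM in G9a_KO and 28.0 ± 4.0 CPM in WT libraries (SD, n = 4 each), a ratio of 0.078. Most of the shared runs of Zfp991 (56.9% of all its runs) lie in Znf41-ps, an unprocessed pseudogene in the same cluster, so reads can also move between this sum and that gene. With Znf41-ps added, the sum was 4.58 ± 0.849 CPM in G9a_KO and 39.0 ± 5.65 CPM in WT libraries, a ratio of 0.117. Called genes with a log2 fold change under -3 made up 0.423% of all genes tested.

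**Figure D2:**
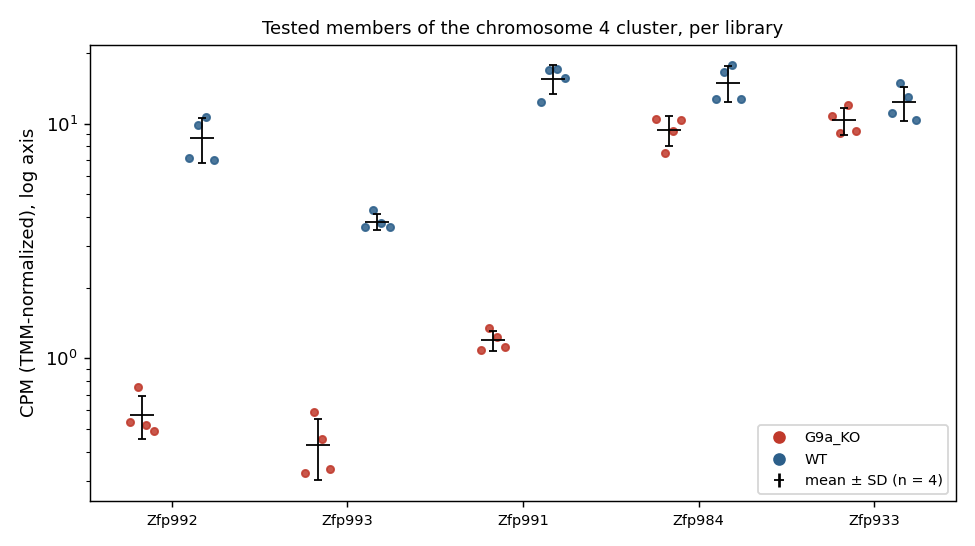
Level of the 5 tested genes of the chromosome 4 cluster in each library (CPM, log axis), in order of position, with G9a_KO (red) left of WT (blue) and bars for mean ± SD (n = 4). Zfp991, Zfp992 and Zfp993 stay at or under 1.34 CPM in every G9a_KO library and at or above 3.62 CPM in every WT library, while the groups of Zfp933 overlap.

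The other tested genes of the chromosome 4 cluster changed less. Zfp984 (chromosome 4, 147753974 to 147809788) had 10.5, 7.5, 9.30 and 10.4 CPM in G9a_KO, against 12.7, 16.6, 17.7 and 12.8 CPM in WT. Over all 8 libraries it had the most counts of this cluster, with 2616 in G9a_KO, where Zfp933 had 2839, and 3904 in WT, where Zfp991 had 4043. It fell by 0.67 ± 0.13 on the log2 scale (edgeR, adjusted p = 0.00101), with no overlap. Zfp933, its neighbour at 147822986 to 147848366, was not called: it had 10.3 ± 1.33 CPM in G9a_KO and 12.3 ± 2.02 CPM in WT (log2 fold change -0.26 ± 0.12, adjusted p = 0.107). No 100-base run of Zfp933 occurs in another gene. Per kilobase of exon, Zfp991 stood at 0.409 CPM in G9a_KO and 5.32 CPM in WT, where of the 63 genes only Zfp948 was higher. Zfp984 stood at 3.23 CPM per kilobase in G9a_KO and 5.14 in WT.

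The other 11 genes of this cluster were hardly detected. Together they had 15 counts over the 4 G9a_KO libraries and 51 over the 4 WT libraries, none had more than 24 counts over all 8, and 8 of them had 0 counts in every G9a_KO library. Whether they differed was not detectable at this depth.

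The fall on chromosome 4 was not shared by the genes around the cluster. The 75 genes without fingers of at least 5 CPM within 5 Mb had a median log2 fold change of -0.0062, with 25 lower and 18 higher. Inside the cluster, 3 genes outside the family fell, while 8 processed pseudogenes, 1 lincRNA and 1 protein-coding gene were tested and not called. That protein-coding gene, Gm13212, named after its values were seen, had a log2 fold change of -0.94 ± 0.38 (edgeR, adjusted p = 0.057). Over all genes tested, 23.6% fell. Znf41-ps (145825237 to 145829942), the pseudogene that shares most with Zfp991, had 2.39 ± 0.557 CPM in G9a_KO and 11.0 ± 1.68 CPM in WT (log2 fold change -2.21 ± 0.17, adjusted p = 2.79e-07). The processed pseudogene Gm13241 and the lincRNA Gm13166 fell by 3.53 ± 0.64 and 1.79 ± 0.54 on the log2 scale, and both were under 1 CPM in either group.

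**Figure D3:**
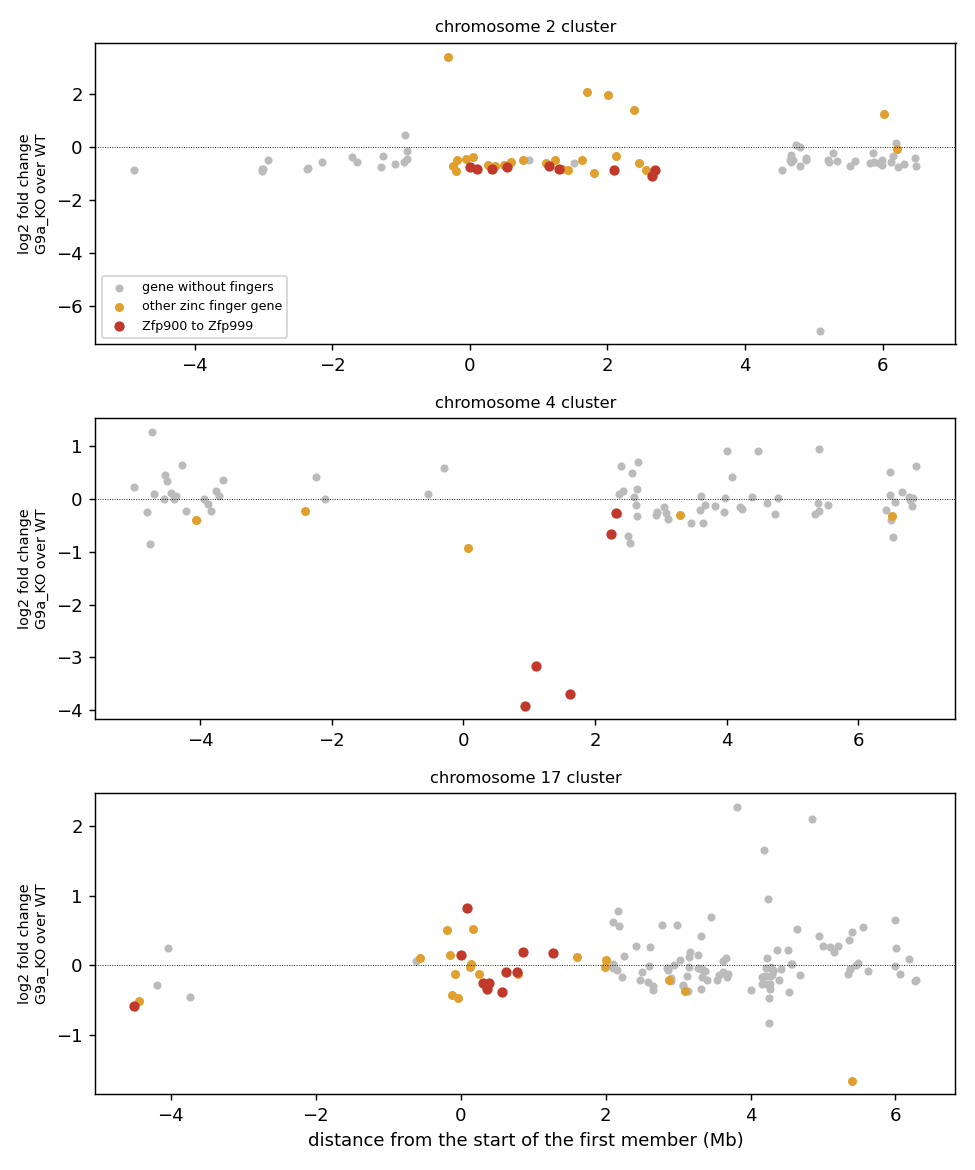
Log2 fold change (G9a_KO over WT) of tested protein-coding genes against its distance in Mb from the first gene of the family in the clusters of chromosomes 2, 4 and 17. Red marks Zfp900 to Zfp999, orange other zinc finger genes and grey genes without fingers of at least 5 CPM. Of the 49 grey genes in and around the chromosome 2 cluster 46 sit below 0, with a median of -0.55. Those around the chromosome 4 cluster are centred near 0 while 3 protein-coding genes in it lie under -3, and the chromosome 17 cluster is spread around 0. The red point far left in the chromosome 17 panel is Zfp960, which is outside that cluster.

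The chromosome 2 cluster fell as a block and by less. All 9 tested genes of the 10 between 175372436 and 178078476 were lower, at 47.2% to 61.6% of their WT means, with a median log2 fold change of -0.83. Summed over the cluster, the level was 25.5 ± 1.43 CPM in G9a_KO and 46.0 ± 3.63 CPM in WT libraries (SD, n = 4 each). The tenth gene, Zfp972, had 23 counts over the G9a_KO libraries and 55 over the WT libraries and was not tested.

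Several genes of this cluster were close copies of each other, also at their starts. The promoter windows (250 bases before to 50 after the start, RefSeq, GRCm38.p6) of Zfp971 and Zfp970 shared 284 of 291 aligned bases (97.6%). Those of Zfp965, Zfp966, Zfp967, Zfp968, Zfp973 and Zfp931 shared 97% to 97.7% with Zfp971, and that of the untested Zfp972 shared 80.6%. That of Zfp975, a gene of chromosome 7 that also fell, shared 175 of 242 with Zfp971 (72.3%), and that of Zfp950, a gene of chromosome 19 that was not called, shared 199 of 250 (79.6%). Of other windows outside the cluster, that of Zfp937, which fell, shared 73.5% with Zfp971. Those of Zfp958, Zfp932, Zfp959, Zfp938 and Zfp951, all not called, shared 63.6% to 74.5%. The windows of Zfp971, Zfp970, Zfp975 and Zfp950 are shown because they set 3 genes that fell beside 1 of like sequence not called. Capitals mark the box CCAAT or its reverse ATTGG, both strands searched.
Zfp971, chr2:178023034-178023333, plus strand: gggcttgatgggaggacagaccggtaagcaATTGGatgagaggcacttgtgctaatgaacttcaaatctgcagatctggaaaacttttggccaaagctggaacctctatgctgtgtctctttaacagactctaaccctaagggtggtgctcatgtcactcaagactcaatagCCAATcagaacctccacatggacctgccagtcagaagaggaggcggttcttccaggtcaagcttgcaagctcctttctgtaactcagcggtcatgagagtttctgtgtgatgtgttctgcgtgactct
Zfp970, chr2:177464492-177464791, plus strand: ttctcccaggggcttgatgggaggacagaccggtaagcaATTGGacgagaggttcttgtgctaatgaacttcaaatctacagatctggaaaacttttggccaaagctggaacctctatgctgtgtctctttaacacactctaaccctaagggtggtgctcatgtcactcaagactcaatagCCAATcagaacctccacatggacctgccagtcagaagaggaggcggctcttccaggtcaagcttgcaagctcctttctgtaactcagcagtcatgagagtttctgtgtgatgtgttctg
Zfp975, chr7:42692669-42692968, minus strand: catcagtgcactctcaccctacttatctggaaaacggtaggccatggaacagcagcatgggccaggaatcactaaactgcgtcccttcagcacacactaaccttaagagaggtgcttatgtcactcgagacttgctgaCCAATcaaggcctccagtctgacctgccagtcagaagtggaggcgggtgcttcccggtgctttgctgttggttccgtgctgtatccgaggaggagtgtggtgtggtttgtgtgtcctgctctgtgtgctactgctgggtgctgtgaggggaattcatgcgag
Zfp950, chr19:61140791-61141090, minus strand: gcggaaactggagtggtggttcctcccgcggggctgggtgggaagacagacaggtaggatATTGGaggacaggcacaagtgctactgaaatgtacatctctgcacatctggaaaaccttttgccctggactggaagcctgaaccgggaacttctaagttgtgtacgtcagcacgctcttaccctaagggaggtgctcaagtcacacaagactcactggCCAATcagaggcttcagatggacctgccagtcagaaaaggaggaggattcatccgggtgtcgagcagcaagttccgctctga
The windows of Zfp971, Zfp970 and Zfp950 held the box at 2 places and that of Zfp975 at 1, so the box was present with and without a called fall.

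Over the family, 50 genes had a window within 50 kb of their annotated start. The box CCAAT occurred in 38 of these 50 windows, against 37.4% of the 32851 windows of the RefSeq table. It was in all 9 windows of the chromosome 2 cluster and in 3 of 10 on chromosome 17. The motif GGGCGG (or its reverse CCGCCC) occurred in 0 of the 9 windows on chromosome 2 and in 7 of 10 on chromosome 17, against 35.7% of all windows. By call, CCAAT was in 11 of the 11 windows of genes that fell and in 17 of the 28 of genes not called. Zfp930, Zfp960, Zfp969, Zfp991, Zfp992 and Zfp993 also fell but had no window within 50 kb, so the deepest falls are not covered. CpG dinucleotides numbered a median of 5 in windows of genes that fell, 10 in those not called and 7 in all windows. These are descriptions, since most windows of genes that fell are copies of each other.

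Zfp970 (chromosome 2, 177464733 to 177478129, 14 fingers) had 4.94, 4.16, 5.04 and 4.78 CPM in the G9a_KO libraries, against 8.24, 8.82, 8.26 and 9.05 CPM in the WT libraries. It had the most counts of the cluster, with a log2 fold change of -0.86 ± 0.10 (edgeR, adjusted p = 1.25e-05). The WT libraries were close to each other and all above the G9a_KO libraries. Zfp971 (178023284 to 178034022, 12 fingers) had 4.02, 4.65, 2.86 and 4.34 CPM in G9a_KO, against 8.55, 10.1, 8.02 and 7.02 CPM in WT. Its log2 fold change of -1.08 ± 0.16 (adjusted p = 7.93e-05) was the lowest of the cluster, and the groups did not overlap.

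Zfp965 and Zfp973 have identical coding sequences of 954 bases with 6 fingers. Zfp965 had 3.15, 2.60, 2.66 and 2.71 CPM in G9a_KO, against 4.71, 5.46, 4.72 and 4.98 CPM in WT. Zfp973 had 2.85, 2.53, 2.51 and 2.34 CPM in G9a_KO, against 4.29, 4.90, 4.36 and 4.62 CPM in WT. Both had G9a_KO libraries all below the WT libraries, with log2 fold changes of -0.84 ± 0.13 and -0.83 ± 0.13 (adjusted p = 0.00011 and 0.000143). Of their 100-base runs, 93.4% and 73.2% also occur in another gene, so these are not separate observations.

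Zfp966, Zfp967, Zfp968 and Zfp969 also share 1 coding sequence, of 1455 bases with 11 fingers. Zfp969 had 2.09, 2.43, 1.97 and 1.86 CPM in G9a_KO, against 3.16, 4.15, 3.96 and 3.57 CPM in WT (log2 fold change -0.83 ± 0.15, adjusted p = 0.000613). Zfp966 had 3.82, 4.56, 3.95 and 3.18 CPM in G9a_KO, against 5.25, 7.22, 6.73 and 6.52 CPM in WT (-0.73 ± 0.14, adjusted p = 0.000772). Zfp968 had 2.76, 2.99, 2.34 and 2.17 CPM in G9a_KO, against 3.80, 4.56, 4.81 and 4.08 CPM in WT (-0.75 ± 0.15, adjusted p = 0.00102). None of the 3 overlapped between the groups. Zfp967 averaged 1.66 ± 0.192 CPM in G9a_KO and 2.70 ± 0.18 CPM in WT (-0.70 ± 0.16, adjusted p = 0.00318). Every 100-base run of Zfp967 and Zfp969 occurs in another gene, while Zfp966 and Zfp968 share 79.9% and 88.6% of theirs. The counts of Zfp967 and Zfp969 cannot be told apart from those of the other copies, and those of Zfp966 and Zfp968 only in part.

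Zfp931 (178067695 to 178078476, 7 fingers) was the tested gene of the cluster that shared least, with 6.9% of its 100-base runs in another gene. It averaged 1.19 ± 0.248 CPM in G9a_KO and 2.14 ± 0.577 CPM in WT (log2 fold change -0.86 ± 0.24, adjusted p = 0.0106). Its groups overlapped: the lowest WT library, at 1.42 CPM, lay under the highest G9a_KO library, at 1.5 CPM.

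**Figure D4:**
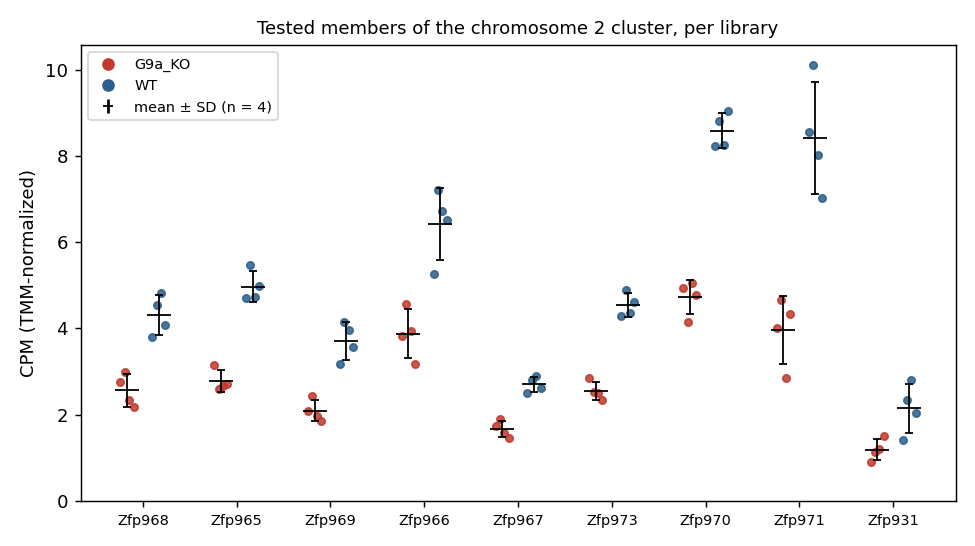
Level of the 9 tested genes of the chromosome 2 cluster in each library (CPM), in order of position, with G9a_KO (red) left of WT (blue) and bars for mean ± SD (n = 4). In 8 of the 9 genes every G9a_KO library lies below every WT library, and Zfp931 is the gene whose groups overlap.

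The surroundings of this cluster were lower too. The 49 genes without fingers of at least 5 CPM within 5 Mb had a median log2 fold change of -0.55, and 42 of them fell (85.7%) while 1 rose. Among the 49 are 2210418O10Rik and Gm14296, which lie inside the cluster and are counted there again below. With the median of each gene's own neighbours subtracted, the 9 genes of the family lay between -0.56 for Zfp971 and -0.16 for Zfp967, with a median of -0.29. The part of the shared shift in their fall was not tested. Inside the cluster, 18 of 23 other tested protein-coding genes fell and 2 rose, with a median of -0.58. Gm14295, with 25 fingers, had 7.12 ± 0.746 CPM in G9a_KO and 12.98 ± 1.22 CPM in WT (-0.87 ± 0.10, adjusted p = 1.31e-05), and Gm14296 fell by 0.58 ± 0.08 on the log2 scale (adjusted p = 7.41e-05). Gm14418, with 8 fingers, rose to 2.29 ± 0.481 CPM in G9a_KO, against 0.577 ± 0.161 CPM in WT (1.98 ± 0.26, adjusted p = 3.03e-05). The other gene that rose was Gm14322, named after its values were seen, by 1.39 ± 0.29.

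No gene of the chromosome 17 cluster was called. All 10 genes between 21567008 and 22867134 were tested, with a median log2 fold change of -0.10 and a range of -0.38 to 0.83. Their summed level was 110.2 ± 6.39 CPM in G9a_KO and 111.8 ± 14.1 CPM in WT libraries (SD, n = 4 each). Copies here share little sequence, with 0% to 5.4% of 100-base runs found in another gene. The 102 flanking genes without fingers had a median of -0.04, with 27 lower and 26 higher.

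Zfp948 (21567008 to 21588699, 15 fingers), in this cluster, was the most abundant of the 63 genes. It had 48.4, 48.0, 46.2 and 43.1 CPM in G9a_KO, against 36.6, 45.4, 44.3 and 41.9 CPM in WT, and the groups overlapped (0.14 ± 0.07, adjusted p = 0.116). Per kilobase it stood at 17.5 CPM in G9a_KO and 15.9 in WT. Zfp942 followed in level with 14.3 ± 1.08 CPM in G9a_KO and 18.1 ± 4.02 CPM in WT (-0.34 ± 0.13, adjusted p = 0.0548). It was called lower by DESeq2 and when WT replicate 1 was left out, while Zfp947 was called lower without G9a_KO replicate 1. The lowest and highest values of the cluster belonged to Zfp947 and to Zfp983, which had 0.412 ± 0.207 CPM in G9a_KO and 0.233 ± 0.151 CPM in WT. Inside the cluster Zfp229, another zinc finger gene, rose to 8.16 ± 0.695 CPM in G9a_KO, against 5.65 ± 0.806 CPM in WT (0.53 ± 0.12, adjusted p = 0.00268).

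The 3 genes of the chromosome 8 cluster (69209038 to 69749970) did not move together. Zfp930 (12 fingers, no KRAB pattern found) had 5.99, 4.88, 5.35 and 4.56 CPM in G9a_KO, against 5.84, 8.88, 8.93 and 8.56 CPM in WT. It fell by 0.63 ± 0.15 on the log2 scale (edgeR, adjusted p = 0.00271), and its lowest WT library overlapped the G9a_KO libraries. It is the gene that fell with no 100-base run in another gene, and its neighbours had a median of -0.04. Zfp964 had 0.678 ± 0.285 CPM in G9a_KO and 0.483 ± 0.313 CPM in WT and was not called (adjusted p = 0.433).

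Zfp963, the third gene of that cluster, was uneven in WT. It had 3.07, 3.13, 3.01 and 2.41 CPM in G9a_KO, against 2.63, 2.15, 0.058 and 2.19 CPM in WT, where replicate 3 held 4 counts. It was not called (0.73 ± 0.56, adjusted p = 0.318), nor was it when that replicate was left out. Its main transcript had 0 counts in that library and 138 to 156 counts in the other WT libraries. Of its 100-base runs, 36.2% also occur in another gene.

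Of the 24 genes outside the clusters, 20 were tested and 3 fell (15%), with a median of -0.04. Zfp975 (chromosome 7, 42660105 to 42692742, 14 fingers) had 1.65, 1.11, 1.45 and 1.39 CPM in G9a_KO, against 2.46, 2.75, 3.39 and 4.0 CPM in WT. The groups did not overlap, and its log2 fold change was -1.17 ± 0.20 (edgeR, adjusted p = 0.000326), while its 67 neighbours had a median of -0.03. Zfp976, next to it, had 23 counts over the G9a_KO libraries and 73 over the WT libraries and was too low to test. Zfp977 and Zfp936, also near, had 0 counts in every library.

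Zfp937 lies on chromosome 2 (150218073 to 150240725), away from the cluster. It averaged 2.10 ± 0.411 CPM in G9a_KO and 3.65 ± 0.884 CPM in WT, without overlap (-0.80 ± 0.21, adjusted p = 0.00634), and its 52 neighbours had a median of -0.62. Zfp960 lies on chromosome 17 (17064113 to 17089628), at lower coordinates than the cluster there, and had 5.36 ± 0.783 CPM in G9a_KO and 7.99 ± 0.854 CPM in WT (-0.58 ± 0.13, adjusted p = 0.00199). Its 26 neighbours had a median of -0.06. It shares 68.3% of its 100-base runs with Zfp97, a zinc finger gene taken up for that reason, which fell by 0.50 ± 0.13 (adjusted p = 0.00601).

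The other 17 tested genes outside the clusters were not called, with log2 fold changes between -0.36 and 0.40. Zfp961 (chromosome 8, 71951038 to 71993792) was the most abundant of them, at 12.5 ± 2.45 CPM in G9a_KO and 12.4 ± 2.98 CPM in WT (0.01 ± 0.17, adjusted p = 0.954). Zfp951 and Zfp932 lie on chromosome 5 among genes that were higher, with neighbour medians of 0.36 and 0.32. Their own log2 fold changes were 0.10 ± 0.08 and 0.22 ± 0.12. Zfp932 represses endogenous retroviruses in mouse embryonic stem cells, and it had 6.08 ± 0.275 CPM in G9a_KO and 5.22 ± 0.79 CPM in WT (adjusted p = 0.166). The 3 genes of chromosome 13, Zfp934, Zfp935 and Zfp953, were not called, with 0.32 ± 0.25, -0.36 ± 0.19 and 0.09 ± 0.13. Zfp935 holds 99.3% of its 100-base runs in common with another gene, so its value is uncertain.

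Genes that fell tended to share sequence with others. The median share of 100-base runs also found in another gene was 68.3% for the 17 genes that fell and 0.2% for the 30 tested genes not called. Of those that fell, 9 shared at least 50% and 1 shared under 5%. Of those not called, 1 shared at least 50% and 24 shared under 5%. The position on chromosome 2 and the near-identical copies on chromosome 4 enter both measures, and their part in this was not tested.

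**Figure D5:**
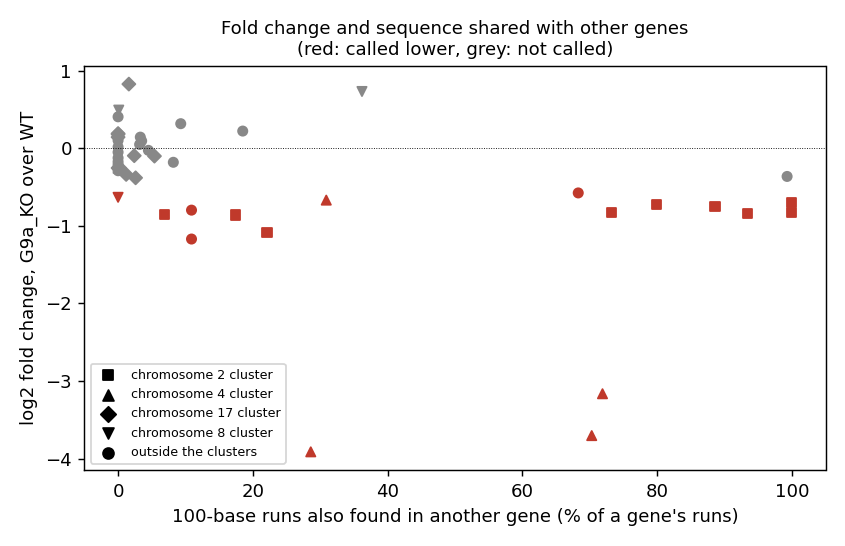
Log2 fold change (G9a_KO over WT, vertical axis) against the percentage of a gene's 100-base runs that also occur in another gene (horizontal axis), for the 47 tested genes, with a marker for each cluster. Genes called lower (red) range from 0% to 100% shared, and 24 of the 30 genes not called (grey) lie under 5%.

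Among genes listed as cofactors of KRAB silencing, more fell than rose. Of 22 listed silencing cofactors, all tested, 12 fell (54.5%), 1 rose (4.5%) and 9 were not called, against 23.6% lower and 23.6% higher of all genes tested. Their median was -0.17, and against a fold of 1.5 edgeR called 3 lower and 0 higher. Trim28, the scaffold bound by the KRAB domain, had 712 ± 11.2 CPM in G9a_KO and 877 ± 17.1 CPM in WT (-0.30 ± 0.04, adjusted p = 1.14e-05). Morc3, an ATPase that silences retroelements, had 25.4 ± 2.03 CPM in G9a_KO and 70.3 ± 7.24 CPM in WT (-1.47 ± 0.08, adjusted p = 1.19e-08). Morc2a, which acts with the HUSH complex, fell by 0.86 ± 0.05, and Pphln1, a subunit of that complex, by 0.39 ± 0.06. The DNA methyltransferase gene Dnmt3b, on chromosome 2, fell by 1.04 ± 0.11 and the remodeller gene Chd3 by 0.56 ± 0.07. The deacetylase gene Hdac2 was the one that rose, by 0.18 ± 0.05. Of 5 genes of the G9a complex, 4 fell (80%, against the same 23.6%), but these include Ehmt2, the gene that was knocked out. The others that fell were Wiz by 0.36 ± 0.08, Ehmt1 by 0.23 ± 0.05 and Cdyl by 0.20 ± 0.07 on the log2 scale. Zfp644 was not called (0.11 ± 0.08).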

How the data were processed

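Poly-A RNA was measured in 8 Hepa 1-6 libraries, 4 G9a_KO and 4 WT. The deposited table lists transcripts with whole-number counts that were not normalized. Per the submitters' processing notes, FastQC, Trimmomatic and HISAT2 were used with GRCm38.p6. How reads were counted, with which annotation and whether by strand is not given in the sources used here, so genes that overlap in antisense cannot be told apart.

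Of 115220 transcripts, 114332 (99.23%) matched GENCODE mouse release 21 (M21, GRCm38), and counts were summed per gene, where the design had assumed counts per gene. The 888 unmatched transcripts held 0.148% to 0.17% of a library and were left out. Zfp939 matches the symbol rule but is not annotated as protein coding. Limits from a count of 0 cover counting error only.

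Groups were compared with edgeR 4.0.16 (R 4.3.3), quasi-likelihood F test, TMM, filterByExpr, genotype as the only term, two-sided, Benjamini-Hochberg over all 15840 genes tested. A gene fell or rose at an adjusted p under 0.05. The SE of a log2 fold change was derived from this test, as its absolute value divided by the square root of F. The members and lists were chosen with earlier results of these data known. Named genes were Ehmt2, genes of the family called and reaching 1 CPM in either group (values per library for the 12 with the lowest p), the 3 most abundant, the one with most counts in each cluster, the 6 cofactors and up to 3 genes inside each cluster with the lowest p. Neighbours are tested protein-coding genes of at least 5 CPM within 5 Mb, zinc finger genes left out. Fingers, the KRAB pattern and shared runs came from annotated transcripts of the same release, and alignments from Biopython 1.88. RefSeq windows were found for 53 of the 63 genes. No 2 libraries of a group agreed within counting error (the lowest chi-square over its degrees of freedom was 10.94). Replicate numbers did not pair the libraries: the correlations of same-numbered deviations were -0.023, -0.002, 0.075 and -0.018. Alternatives were DESeq2 1.42.0, limma-voom (limma 3.58.1), other scalings and filters, a test against 1.5-fold, a replicate block, each library left out, other cluster rules and subtraction of neighbours. The code was tested on simulated data.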

Additional observations from a re-analysis of the deposited data

Results flagged for a closer look

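Single libraries stood apart from the other 3 of their group by Dixon's test in 7 of 94 groups of tested genes of the family, where chance flags about 1 in 20 groups. In G9a_KO, Zfp992 was high in library 2 at 0.751 CPM, Zfp937 was low in library 4 at 1.49 CPM, Zfp954 was low in library 4 at 4.19 CPM, and Zfp974 was low in library 3 at 3.01 CPM. In WT, Zfp930 was low in library 1 at 5.84 CPM, Zfp950 was high in library 3 at 7.99 CPM, and Zfp953 was low in library 2 at 3.30 CPM. Zfp930, Zfp937 and Zfp992 were called lower without the library concerned too.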

How the results depend on the processing

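All 17 genes that fell were also called lower with DESeq2, limma-voom, DESeq2 size factors, library sizes alone, both other filters and each library left out. The replicate block called 17 lower and 0 higher and changed no call of the family. Against a fold of 1.5, 6 of the 17 were called (Zfp970, Zfp971, Zfp975, Zfp991, Zfp992 and Zfp993), with 2 on chromosome 2, 0 on chromosome 8 and 1 outside the clusters. That test called 1191 of all genes higher and 465 lower, 5 and 13 of the other zinc finger genes, and 0 and 3 of the cofactors. Library sizes alone moved the median of all genes to 0.08 and that of the other zinc finger genes to -0.0393, and called 1 gene of the family higher. Leaving out 1 library gave 0 to 2 genes called higher, 17 to 19 called lower, and 0 to 1 lower on chromosome 17. Chromosome 17 had 1 called lower with DESeq2 (Zfp942), and 1 when starts up to 5 Mb apart or whole chromosomes were grouped. The chromosome 8 median, 0.49 over 3 genes, was 0.0687 over the 2 with at least 1 CPM and 0.015 over the whole chromosome. Subtracting neighbours moved the chromosome 2 median to -0.29 and moved the values of the 10 genes that fell on chromosome 2, and reversed none of the 17. Genes under the detection limit in all libraries could not be compared at this depth.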
